A study of Mus musculus with 2 samples.

Results

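The genes described here are the 37 genes of the mouse mitochondrial genome and 3 nuclear copies of mitochondrial sequence, Gm28437, Gm29216 and Gm28661, in the newborn thymus. The 37 were taken by their symbols, which begin with mt-, and the copies by name. This choice was made with earlier results of these data known. The 3 copies are those of highest mean level among 7 that lie together on chromosome 1, so their high rank is no result about nuclear copies at large. The 40 members stand among 43346 mouse genes in the tables. RNA longer than 200 nt was taken from whole thymus of B6NCrl mice at postnatal day 0, and 13 pg of total RNA, given as 1 cell-equivalent, went into each of 2 libraries. Pup 6 gave replicate 1 and pup 7 gave replicate 2, both born to a Charles River C57/Bl6 female, with 1 donor listed for both. The sex of the pups was not collected, no treatment or allele was listed, and both libraries form 1 group. No test between groups was therefore possible, and values are given per library or as mean ± SD of 2. In bulk tissue, fewer cells of a type and less RNA per cell cannot be told apart.

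The mitochondrial genome is a small circle that is read from both strands into long transcripts. These are cut into mRNAs, rRNAs and tRNAs, in many places at the tRNAs that lie between the other genes. Its mRNAs encode core subunits of respiratory complexes I, III and IV and of the ATP synthase (complex V), while all other proteins of the organelle come from nuclear genes. Pieces of this genome have been inserted into nuclear chromosomes during evolution, and a recent insert can still carry the same letters as its source. A read from such a stretch fits the mitochondrial gene and the nuclear copy equally well.

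The listed copies belong to a longer array. Aligned to the mitochondrial transcripts, 7 annotated pseudogenes lay side by side on the minus strand of chromosome 1 between 24611535 and 24616197 (GRCm38). In the order of the mitochondrial genome they match mt-Co1 (Gm29216), mt-Co2 (Gm28661), mt-Atp6 (Gm10925), mt-Co3 (Gm28437), mt-Nd3 (Gm28438), mt-Nd4l (Gm10222) and mt-Nd4 (Gm28439). The position on chromosome 1 plus the matching position on the mitochondrial genome came to 24622578 for 5 of them and to 24622577 for Gm10222 and Gm28439. The array runs colinear with its source, with a shift of 1 base before Gm10222. Identity was 100% over 783 bases between Gm28437 and mt-Co3, over 681 bases between Gm28661 and mt-Co2, and over 678 bases between Gm10925 and mt-Atp6. Gm10222 matched mt-Nd4l over 294 bases and Gm28439 matched mt-Nd4 over 876 bases, both at 100%. Gm29216 matched the last 483 bases of mt-Co1 at 99.8%, and Gm28438 matched 345 bases of mt-Nd3 at 99.7%.

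How little separates a copy from its source is seen in the letters. The transcript sequences are those of GENCODE M21 on GRCm38. The ends of mt-Co3 (chrM:9330-9390, plus strand) and of Gm28437 (chr1:24613189-24613248, minus strand) are shown with the only base beyond the annotated copy in capitals. Whether chromosome 1 goes on with the same base was not compared.
mt-Co3: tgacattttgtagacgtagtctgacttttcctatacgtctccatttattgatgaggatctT
Gm28437: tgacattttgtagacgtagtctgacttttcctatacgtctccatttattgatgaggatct
The starts of mt-Nd3 (chrM:9459-9491, plus strand) and Gm28438 (chr1:24613087-24613119, minus strand) hold the single difference of that pair, T3C counted from the 5′ end of mt-Nd3, in capitals.
mt-Nd3: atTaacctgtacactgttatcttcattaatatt
Gm28438: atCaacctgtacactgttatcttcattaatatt
Gm29216 differs from mt-Co1 only at its start, in 5 of its first 9 bases and at A1066T, counted from the 5′ end of mt-Co1. Its first 60 bases (chr1:24616138-24616197, minus strand) are shown against mt-Co1 (chrM:6381-6440, plus strand), with the 6 differing bases in capitals.
mt-Co1: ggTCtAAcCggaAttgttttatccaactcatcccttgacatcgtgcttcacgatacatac
Gm29216: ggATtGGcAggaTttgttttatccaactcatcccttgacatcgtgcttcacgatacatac

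Windows of 100 bases show how many read-sized stretches each gene has to itself among the annotated transcripts. Stretches of chromosome 1 between the annotated copies were not compared. For every gene here longer than 99 bases the tables set the effective length 99 bases short of the full length, so it equals the number of such windows. Of 685 windows in mt-Co3, 684 were found letter for letter in Gm28437, which left 1. In mt-Co2 3 of 585 windows were its own, in mt-Atp6 3 of 582, in mt-Nd4l 3 of 198 and in mt-Nd3 6 of 249. Longer genes that were copied only in part kept more, with 1000 of 1446 windows in mt-Co1 and 502 of 1279 in mt-Nd4. By contrast, mt-Nd1, mt-Nd5, mt-Nd6, mt-Cytb, mt-Atp8, mt-Rnr1 and mt-Rnr2 shared no window with another annotated transcript. In mt-Nd2 30 of 939 windows were shared, with a copy on another chromosome. mt-Atp8 starts between mt-Co2 and mt-Atp6, which both have a copy in the array. Whether chromosome 1 also carries the sequence of mt-Atp8 was therefore not tested. On the side of the copies, Gm28437, Gm28661, Gm10925 and Gm28439 had no window of their own, Gm28438 had 3 and Gm29216 had 13.

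The tables held 25999043 expected counts in mouse genes in replicate 1 and 31902773 in replicate 2. An expected count is the authors' estimate of a gene's reads, and need not be whole where reads are divided between genes. The 37 mitochondrial genes took 2.32% of mouse counts in pup 6, with a 95% interval (exact binomial) from 2.31 to 2.33. In pup 7 they took 2.36%, with bounds of 2.35 and 2.36. The 3 copies held 192002 counts in replicate 1 and 314911 in replicate 2. That was 24.1% (24.0 to 24.2) and 29.5% (29.4 to 29.6) of the counts of all 40 members. The share of the copies was thus higher in replicate 2 by more than counting error, which is the only error that these intervals cover. They leave out the error of dividing shared reads between genes. For Gm28437 alone the deposited SD of that division was 35985 counts in replicate 1 and 53959.8 in replicate 2. A difference between the pups in this share is therefore not established. With the whole array counted, mitochondrial sequence took 3.12% and 3.42% of mouse counts.

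Levels are given as TPM, which divides counts by effective length and scales each library to 1000000 over mouse genes, so that genes can be compared with each other. All 13 mRNA genes and both rRNA genes were read in both libraries. The mRNA genes summed to 36121 ± 1969.6 TPM (SD, n = 2), the rRNA genes to 5035 ± 33.6 and the 3 copies to 19678 ± 5259. How evenly the library steps took up mRNA and rRNA was not tested. The sums of these classes need not follow their amounts in the tissue. Among all mouse genes by mean TPM, mt-Atp6 ranked 1, Gm28437 ranked 2 and mt-Atp8 ranked 3. Of the 15 mRNA and rRNA genes, 4 were among the top 20 and 9 among the top 100.

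With reads divided as deposited, complex V transcripts had the highest sum of the complexes, and were nearly level between the pups. With copies joined to their sources, as described later, complex IV had the higher mean, though complex V was higher in replicate 1. mt-Atp6, the proton channel subunit of the ATP synthase (chrM, 7927 to 8607, plus strand), stood at 11339.7 TPM in replicate 1 and 11560.1 in replicate 2. mt-Atp8, a small subunit of the same enzyme (chrM, 7766 to 7969, plus strand), stood at 8179 and 8367 TPM. These genes overlap by 43 bases and are known to share 1 mRNA. Their ratio, mt-Atp6 over mt-Atp8, was 1.39 and 1.38. A sum of 19723 ± 289 TPM gave complex V 54.7% ± 2.18 of mRNA TPM with 2 of the 13 genes. mt-Atp6 shares 579 of its 582 windows with Gm10925, and the level of mt-Atp8 rests on an effective length of 105 bases.

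Complex IV, cytochrome c oxidase, passes electrons to oxygen, and its 3 mitochondrial genes encode its core. mt-Co1, the subunit that holds the oxygen-reducing centre (chrM, 5328 to 6872, plus strand), stood at 2835 TPM in replicate 1 and 4191 in replicate 2. mt-Co2, which takes electrons from cytochrome c (chrM, 7013 to 7696, plus strand), stood at 1981 and 2612 TPM, and mt-Co3 (chrM, 8607 to 9390, plus strand) at 1316 and 1814. All 3 were thus higher in replicate 2, and their sum was 7375 ± 1758 TPM, or 20.3% ± 3.76 of mRNA TPM. All 3 also have a listed copy, so these levels depend on how the shared reads were divided.

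Complex III is represented by mt-Cytb alone, its electron-carrying cytochrome b (chrM, 14145 to 15288, plus strand), which shares no window with another gene. It stood at 2869 TPM in replicate 1 and 3619.6 in replicate 2, on 61260 and 87344 counts. Complex I, NADH dehydrogenase, has 7 mitochondrial genes, all for its membrane arm, and they summed to 5779 ± 607 TPM. That was 16.1% ± 2.56 of mRNA TPM, so the complex with the most genes had a smaller sum than complexes IV and V.

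Within complex I the genes spread over a wide range. mt-Nd1 (chrM, 2751 to 3707, plus strand) led at 2890 TPM in replicate 1 and 2263 in replicate 2, and mt-Nd4 (chrM, 10167 to 11544, plus strand) followed at 1581 and 1086. mt-Nd2 (chrM, 3914 to 4951, plus strand) stood at 582 and 381 TPM, and mt-Nd3 (chrM, 9459 to 9806, plus strand) at 332 and 168. These 4 were lower in replicate 2. The other 3 were listed higher there, though mt-Nd4l turned to lower once joined with its copy. mt-Nd5 (chrM, 11742 to 13565, plus strand) stood at 339.5 and 777 TPM, on 11967 and 30959 counts. mt-Nd6, the only mRNA of the minus strand (chrM, 13552 to 14070), stood at 466 and 638. It overlaps mt-Nd5 by 14 bases, and the tables do not say whether strand was used in counting. mt-Nd4l (chrM, 9877 to 10173, plus strand) was lowest at 19.6 and 36.3 TPM, on 79 and 166 counts. It overlaps mt-Nd4 by 7 bases and is known to share its mRNA, yet mt-Nd4 was listed at 80.7 and 29.95 times its level.

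**Figure D1:**
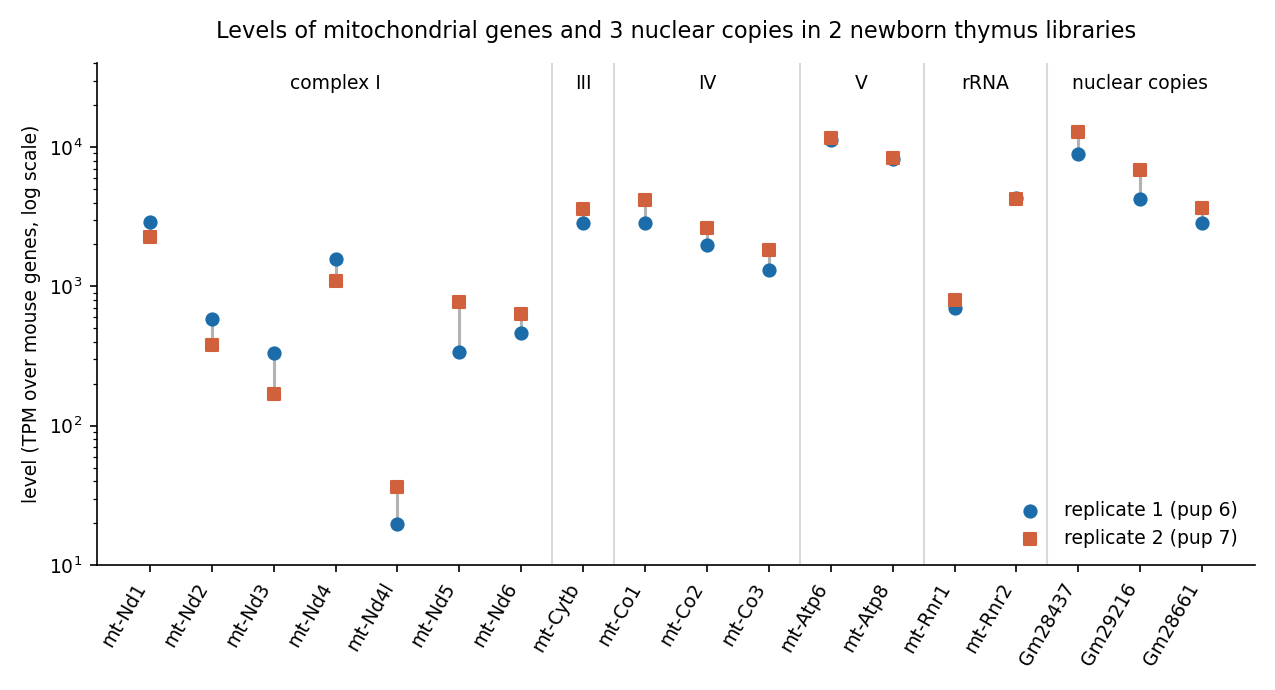
Level of each mRNA and rRNA gene and of the 3 nuclear copies in TPM over mouse genes on a log axis, with circles for replicate 1, squares for replicate 2 and a line joining them. mt-Atp6 at 11339.7 and 11560.1 TPM is at the top of the mitochondrial genes and mt-Nd4l at 19.6 and 36.3 TPM at the bottom.

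Sorted by mean TPM, mt-Atp6, mt-Atp8 and mt-Rnr2 each had a range over the 2 libraries that did not overlap that of the next gene. For mt-Rnr2 this holds narrowly, since its lower value is 4264 TPM and the upper value of mt-Co1 is 4191, and with copies joined mt-Co1 ranked above it with overlapping ranges. The ranges of mt-Co1, mt-Cytb, mt-Nd1 and mt-Co2 overlapped from each neighbour to the next, so their order was not resolved. The same held for mt-Co3 with mt-Nd4, and for mt-Rnr1, mt-Nd5, mt-Nd6 and mt-Nd2. At the low end, mt-Nd3 and mt-Nd4l lay apart from their neighbours with reads divided as deposited. With copies joined, the range of mt-Nd3 overlapped that of mt-Nd4, and the range of mt-Nd4l overlapped that of mt-Nd2.

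The rRNAs of the mitochondrial ribosome differed more from each other than between pups. mt-Rnr2, the large-subunit rRNA (chrM, 1094 to 2675, plus strand), stood at 4314 TPM in replicate 1 and 4264 in replicate 2. mt-Rnr1, the small-subunit rRNA (chrM, 70 to 1024, plus strand), stood at 697 and 795 TPM. The large-subunit rRNA was therefore listed at 6.19 and 5.36 times the level of the small-subunit rRNA, although a mitochondrial ribosome holds each once. Whether these library levels follow the amounts of both rRNAs in the tissue was not tested. Together the rRNAs gave 23.7% of mitochondrial counts in pup 6, with an exact binomial 95% interval from 23.6 to 23.8. In pup 7 they gave 21.5%, with bounds of 21.4 and 21.6. The mitochondrial counts here leave out the whole array on chromosome 1, which was given 208113 counts in pup 6 and 339401 in pup 7. Both shares would be lower with the array in the total, so they depend on how shared reads were divided. The intervals leave out the error of that division. Neither rRNA shares a window of 100 bases with another gene.

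All 22 tRNA genes were listed at 0 counts and 0 TPM in both libraries, and this is no measurement of tRNA. Their lengths run from 59 to 75 bases, and each has an effective length of 0 in the tables. The RNA was also restricted to more than 200 nt. The longest and the shortest are shown in full, mt-Tl1, the tRNA for leucine between mt-Rnr2 and mt-Nd1 (chrM:2676-2750, plus strand), and mt-Ts2, a tRNA for serine (chrM:11613-11671, plus strand). Both are shorter than the window of 100 bases, with no part in capitals.
mt-Tl1: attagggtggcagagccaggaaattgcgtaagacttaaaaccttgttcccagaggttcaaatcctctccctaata
mt-Ts2: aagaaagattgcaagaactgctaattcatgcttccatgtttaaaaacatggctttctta

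In TPM from the expected counts, the 3 listed copies stood above their sources. In the counts themselves Gm29216 was below mt-Co1, at 33923 against 83749 in replicate 1 and 62139 against 139945 in replicate 2. Its effective length is 393 bases, against 1446 for mt-Co1. Gm28437 stood at 8894 TPM in replicate 1 and 12887 in replicate 2, against 1316 and 1814 for the identical mt-Co3. Gm28661 stood at 2839.9 and 3662 TPM, against 1981 and 2612 for mt-Co2. Gm29216 stood at 4224 and 6847 TPM, against 2835 and 4191 for mt-Co1. All 3 copies were higher in replicate 2, as were their 3 sources. In the posterior mean estimate, Gm28661 lay below mt-Co2, at 2178 and 2872 TPM against 2517 and 3254. Of the other copies in the array, Gm10925 lay far below mt-Atp6, at 898 and 1417 TPM, and Gm28439 was at 0. Whether any of these reads came from chromosome 1 was not tested, since for nearly all windows the letters do not tell.

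The deposited estimates divided the shared reads very differently from pair to pair. Gm28437 took 87.1% of the 142724 counts of its pair in replicate 1 and 87.6% of 232255 in replicate 2. Gm28661 took 58.8% of 57456 and 58.2% of 84500 counts, and Gm29216 took 28.8% of 117671 and 30.7% of 202084. For Gm10925, identical to mt-Atp6 over 678 bases, the share was 7.30% and 10.9%. Gm28438 took 69.5% and 80.6% of the counts shared with mt-Nd3, and Gm10222 took 95.4% and 90.2% of those shared with mt-Nd4l. Gm28439 took none of the 41310 and 32085 counts of its pair, although its 876 bases are those of mt-Nd4. It was named for that, outside the rule for named genes.

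The same tables hold a second estimate, the posterior mean, with its SD, and it moved reads within pairs but not between them. For mt-Co3 the expected count in replicate 1 was 18416, whereas the posterior mean was 51897 with a posterior SD of 35985. In replicate 2 these were 28698, 78962 and 53959.8. The share of Gm28437 fell to 63.6% and 66.0% in that estimate. For Gm28661 it was 46.3% and 46.8%, and for Gm10925 it rose to 22.4% and 22.6%. The summed count of the pair mt-Co3 and Gm28437 was 142724 and 232255 in both estimates. For mt-Nd4l the posterior SD was 62.8% and 78.9% of the posterior mean. In contrast, the split between mt-Co1 and Gm29216 had a posterior SD of only 155 and 183 counts, and shares of 28.8% and 30.8%. Of the 18 members with reads, 8 had whole counts in both libraries, with a posterior SD of 3.24 counts or less. These were mt-Nd1, mt-Nd4, mt-Nd5, mt-Nd6, mt-Cytb, mt-Atp8, mt-Rnr1 and mt-Rnr2.

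**Figure D2:**
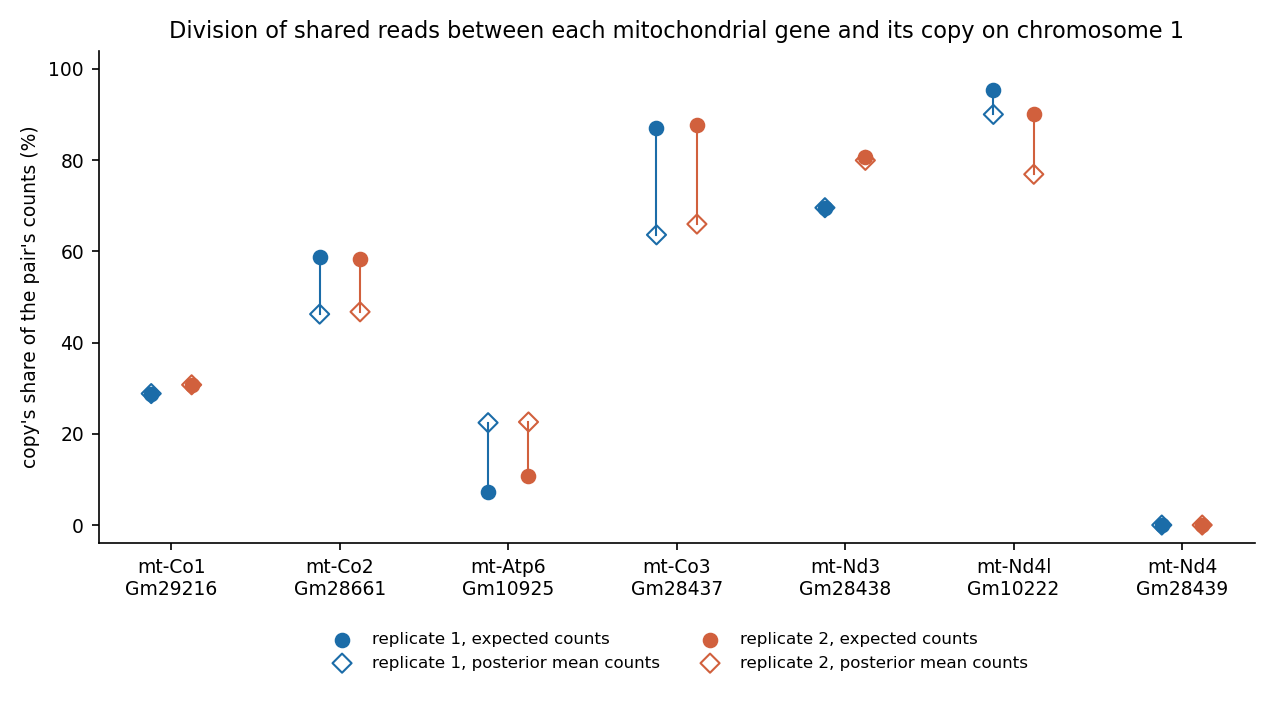
Share of a pair's counts given to the copy on chromosome 1, in percent, for 7 pairs in each library, with filled circles for expected counts and open diamonds for posterior mean counts. For mt-Co3 and Gm28437 the share runs from 63.6% to 87.6%, and for mt-Nd4 and Gm28439 it is at or near 0.

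With each copy's counts joined to its mitochondrial gene, at the effective length of that gene, the order of levels changed. These joined levels were added after the values were seen. mt-Co3 came to 10197 TPM in replicate 1 and 14683 in replicate 2, a mean 7.95 times its level alone. mt-Co2 came to 4807 and 6255 TPM (2.41 times) and mt-Co1 to 3983 and 6052 (1.43 times). mt-Nd3 came to 1089 and 869 TPM (3.91 times), mt-Nd4l to 424 and 369 (14.2 times), and mt-Atp6 to 12233 and 12969.5 (1.10 times). mt-Co3 thereby moved from 8th to 2nd among the 15 genes, with a range that overlapped that of mt-Atp6. The level of mt-Nd4 over mt-Nd4l fell to 3.73 and 2.95.

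Complex IV changed most. Its sum was 6132 TPM in replicate 1 and 8617 in replicate 2 from the mitochondrial genes alone, and 18987 and 26990.2 TPM with the copies joined. Its share of mRNA TPM went from 20.3% ± 3.76 to 42.3% ± 5.67, while that of complex V went from 54.7% ± 2.18 to 38.9% ± 3.21. Joined, the sums of complexes IV and V were 22989 ± 5659 and 20874 ± 654 TPM, and did not differ by more than the spread of complex IV. Complex V was higher in replicate 1, at 20412 against 18987 TPM, and complex IV in replicate 2, at 26990.2 against 21336. Complex I came to 6877 ± 698 TPM, and stayed below both.

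**Figure D3:**
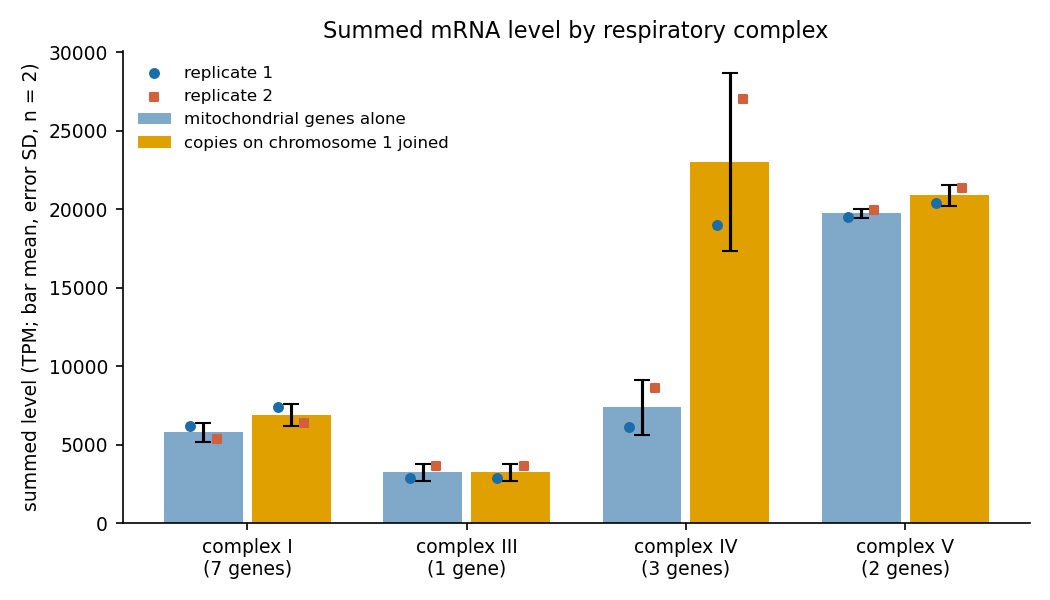
Summed TPM of the mitochondrial mRNA genes of each respiratory complex, alone and with the copies on chromosome 1 joined, with bars for the mean, error bars for the SD of 2 libraries and points for each library. Complex IV goes from 7375 to 22989 TPM when the copies are joined, and complex III has no joined copy.

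Between the pups, mt-Nd5 was the only member past 2-fold. The log2 ratio compares replicate 2 with replicate 1, with 1 TPM added to each. All 18 read members averaged at least 100 counts, and 1 of them was past 2-fold, whereas 67.7% of the 9341 mouse genes at that count were. Most members have high counts, and among 451 genes that averaged at least 10000, 16.6% were past 2-fold. Of the 14 members at that count, 1 was, which is too few genes to set apart from that background. mt-Nd5 had a log2 ratio of 1.19 and a fold of 2.29. mt-Nd3 lay just inside 2-fold at -0.98. With 1 library from each pup, these differences have no replicate check.

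The median log2 ratio of the 18 members was 0.35, against 0.17 over all 9341 genes and -0.02 over the 451. Of the members, 13 were higher in replicate 2 and 5 in replicate 1. The 5 were mt-Nd1 (-0.35), mt-Nd2 (-0.61), mt-Nd3 (-0.98), mt-Nd4 (-0.54) and mt-Rnr2 (-0.02), of which mt-Rnr2 was higher in replicate 2 when counts were scaled with DESeq2 size factors or spike-in totals. Spike-in totals also moved the median of all genes to 0.28, and that of the members to 0.43. The genes of complexes III and IV, mt-Cytb, mt-Co1, mt-Co2 and mt-Co3 ran from 0.34 to 0.56. Over the 15 mitochondrial mRNA and rRNA genes the median was 0.19 alone and 0.08 with copies joined. mt-Nd3 then lay at -0.33, and mt-Nd4l turned from 0.86 to -0.20.

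**Figure D4:**
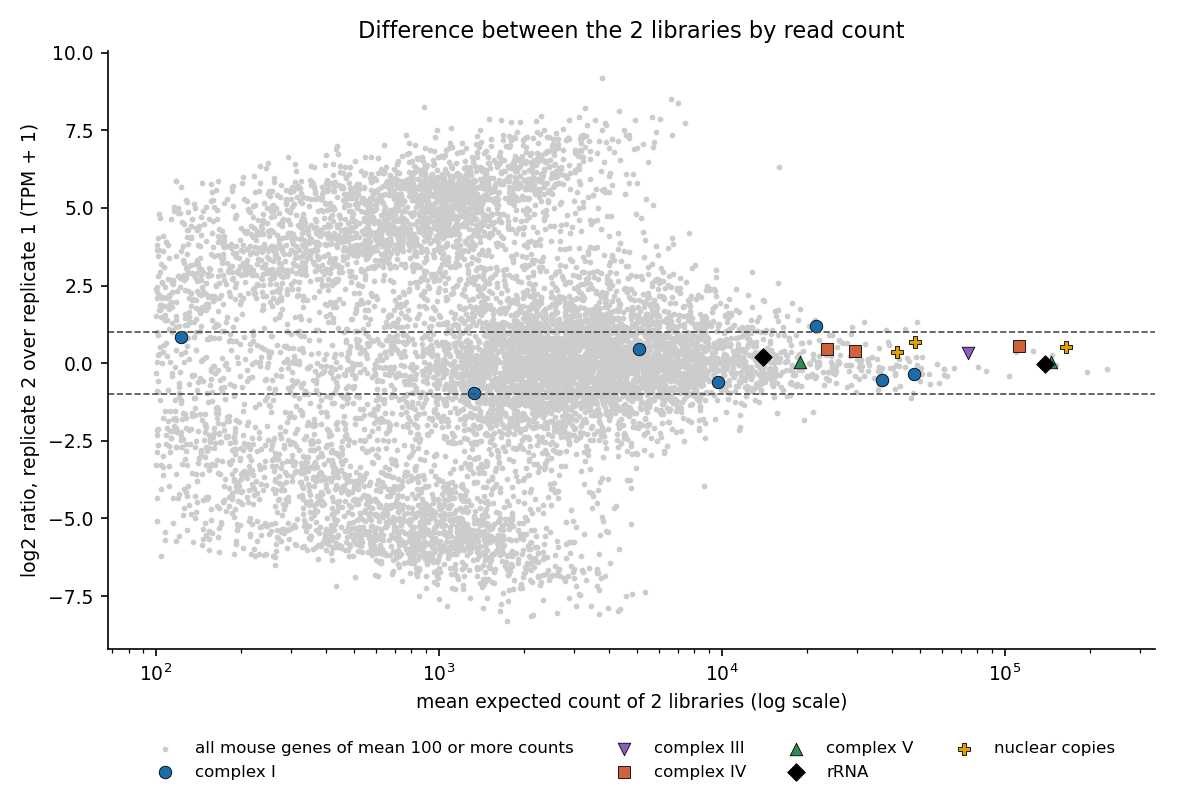
Log2 ratio of replicate 2 over replicate 1 against mean expected count on a log axis, with grey points for the 9341 mouse genes of mean 100 or more counts, coloured symbols for the 18 members and dashed lines at 2-fold. The scatter of grey points narrows as counts rise, and mt-Nd5 at 1.19 is the only member outside the lines.

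The nuclear genes that copy, read and process the mitochondrial genome had a far lower sum than the mitochondrial mRNAs. They differed between the libraries about as often as other genes did. A list of 40 such genes summed to 1423 and 1569 TPM (mean 1496 ± 103), against 36121 TPM for the 13 mRNAs. Of the 40, 21 had at least 1 count in each library, 17 in 1 library and 2 in neither. Those 17 are 44.7% of the 38 with reads, against 40.2% of the 13791 mouse genes with reads. Among the 31 that averaged at least 100 counts, 11 were past 2-fold higher in replicate 2 and 10 in replicate 1. Together these are 67.7%, the same as the share over all genes at that count, with a median log2 ratio of -0.07.

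Read in both libraries were Tfam, which packages the mitochondrial DNA and starts its transcription (129 TPM in replicate 1 and 107 in replicate 2), and Ssbp1, its single-strand DNA-binding protein (182 and 106). Lonp1, a protease of the matrix, stood at 119 and 80.8 TPM, and Mtpap, the mitochondrial poly(A) polymerase, at 64.0 and 60.7. Hsd17b10, a subunit of the enzyme that cuts at the 5′ end of mitochondrial tRNAs, stood at 91.7 and 147 TPM. Fastk stood at 127 and 122 TPM and its relative Tbrg4 at 177 and 66.2, both RNA-binding proteins of the organelle. Polg, the catalytic subunit of the mitochondrial DNA polymerase, stood at 96.4 and 28.3 TPM, and Slirp, which stabilises mitochondrial mRNAs, at 35.0 and 288. Polrmt, the mitochondrial RNA polymerase, named here outside the rule for named genes, stood at 33.4 and 25.8 TPM.

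Of the 34 genes of that list with at least 10 counts in a library, 13 had 0 in the other, or 38.2%. Over all 11093 such mouse genes the share was 31.5%, and nothing particular to the list is read from its count. Tfb2m, which opens the promoter with the polymerase, had 0 counts in replicate 1 and 5083 in replicate 2. Per mouse count that is at least 1381-fold higher against a floor of 3 counts per library, a bound on read counting only. Read in replicate 2 alone were also Fastkd2 (2078 counts), the helicase gene Twnk (1853), Top1mt (1411), Ppargc1b (1386), Gabpa (939), Tfb1m (213), Rnaseh1 (127) and Fastkd1 (28). Read in replicate 1 alone were Trmt10c, the partner of Hsd17b10 in tRNA cutting (2011 counts), Grsf1 (788), Primpol (653) and Mterf4 (190). Mitochondrial mRNAs were read in both libraries throughout, at a mean of 123 counts or more.

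The tissue label was met by thymocyte markers, of which 9 of 9 were read in both libraries with sums of 4769.5 and 4575 TPM. Of 5 thymic epithelium markers, 4 were, with sums of 2451 and 2581 TPM, and Foxn1, a defining factor of that epithelium, was at 0 in replicate 1. Cells rich in mitochondria could also have travelled with the tissue. The 8 heart and skeletal muscle markers, 7 of them read in both libraries, had summed levels of 1267 TPM (pup 6) and 360.1 TPM (pup 7), and Nppa was at 0 in replicate 2. Of the 8, 6 were higher in replicate 1, while Acta1 (3.96 and 44.1 TPM) and Myh7 (0.011 and 0.107 TPM) were higher in replicate 2. The mitochondrial sum was 39739.8 and 42573 TPM in these libraries. Of 3 brown fat markers, Ucp1 and Cidea were at 0 in both libraries and Fabp4 stood at 430.3 and 216 TPM. The part of muscle cells in the mitochondrial levels was not tested.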

How the data were processed

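Total RNA of newborn mouse thymus was sequenced in 2 libraries of 1 group; a protocol document linked in the labels is named for Smart-seq. The authors deposited an expected count (an estimated count) and TPM per gene, with posterior mean versions, in 1 table per library, with column names as RSEM writes them, per the file headers. Per the deposited text notes the assembly was mm10 and the annotation M4. Which aligner and counting program were run is not given in the sources used here. Where genes share letters, the authors' estimate decided how many reads each received, which sets every value of the copied genes.

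From the tables, TPM was rescaled to 1000000 over 43346 mouse genes, named through GENCODE M21 (42462 matched by ID). All 40 members had 1 transcript each, with the same length in M21 as deposited. Log2 ratios are replicate 2 over 1 with a pseudocount of 1 TPM, for genes averaging at least 100 counts, and past 2-fold is the threshold used. Nuclear copies were sought with blastn 2.17.0 among M21 transcripts (100 or more bases at 90% or more identity), and windows of 100 bases were compared letter for letter on both strands. Named genes were all members with reads, the 5 other copies of highest TPM, and of the machinery list the 10 of highest TPM and all with at least 10 counts in 1 library and none in its partner. Members and lists were chosen with earlier results of these data known. The ratio step was run on simulated counts that held counting error only. They lack the wider spread between these 2 libraries, so that run checks the calculation alone. Alternatives used edgeR 4.0.16 (TMM) and DESeq2 1.42.0 size factors on rounded counts, with no test from either. The labels call both libraries biological replicates, so the spread holds pup, RNA handling and library together. Intervals and floors cover counting error only, since the tables carry no molecular identifiers. Transcript tables were not used.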

Additional observations from a re-analysis of the deposited data

How the results depend on the processing

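Over 14 results and 83 alternatives, 62 values stayed within the replicate spread or the limits set. These 62 include every value from leaving out 1 replicate and every tRNA sum, which could not have come out otherwise. Under each pseudocount, scaling and count minimum tried, mt-Nd5 was the only member past 2-fold. Joining the copies, an alternative chosen after seeing the data, moved the mRNA sum to 53983 TPM, the mitochondrial sum to 59019, complex I to 6877, complex IV to 22989 and complex V to 20874. The median log2 ratio with copies joined was 0.084, but over 15 genes rather than 18 members, and those 15 alone gave 0.19. Posterior mean estimates gave 4913 TPM for rRNA, 10559 for complex IV and 17599 for complex V, and 21.96% for the share of the 3 copies. TPM as deposited, with spike-ins kept, gave 33792 for mRNA, 4711 for rRNA, 38503 for the mitochondrial sum and 18451 for complex V, and leaving out short genes gave 5085 for rRNA. At 1.5-fold 5 members were past the threshold, and at 4-fold 0. Without a minimum count the members' median was 0, because 22 unread tRNA genes enter it. The machinery median reversed to 0.015 without a minimum and to 0.00033 with spike-in totals. With 50-base windows, 33.0% of windows of the 15 read mitochondrial genes were shared, against 28.4% at 100. Each library alone lies within 1 SD of the mean of 2 by construction, so leaving out a replicate says nothing of stability; the copy share was 24.1% and 29.5%. Log2 ratios need both libraries, so leaving out a replicate gave no value for them. No paired analysis was possible because the labels give 1 group.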

Other observations

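Beyond the array on chromosome 1, 8 more nuclear copies of mitochondrial genes were found in the tables by sequence, on other chromosomes and at 90.7% to 97.6% identity. None exceeded 66.4 counts in a library. Gm13340, which matches all 1545 bases of mt-Co1 at 97.6%, had 35.7 and 66.4 counts, and Gm13341, which matches mt-Co2 at 95.9%, had 17.0 and 39.9. The other 6 had 3 or fewer counts in each library. Against these stand the 33923 and 62139 counts of Gm29216, at 99.8% identity to mt-Co1.

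Set against the spike-in RNA, mitochondrial genes had 0.601 counts per spike-in count in replicate 1 and 0.698 in replicate 2. Mouse genes as a whole rose against the spike-ins too, so this rise is not particular to mitochondrial genes. They had 25999043 counts beside 1004067 spike-in counts in replicate 1, and 31902773 beside 1077259 in replicate 2. Of the 13 mRNA genes, mt-Co3, mt-Nd4 and mt-Cytb have a length that leaves 1 base over after division into codons and end in t. Their stop codon is known to be completed by the poly(A) tail. The copy Gm28437 is annotated to end 1 base earlier than mt-Co3, and up to that end the 2 sequences are identical.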
